A study of Mus musculus with 2 samples.

Results

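The microRNA genes Mir744, Mir151, Mir652, Mir191 and Mir425 were examined, 5 of 2202 annotated microRNA genes. They were chosen by name from GENCODE M21 because their counts had been seen to be high and close between the libraries, and because each was thought to lie in a broadly expressed host gene. Their levels and their ratios between libraries are therefore descriptions, and no test is given for them. The data went against that description in 3 points: Mir744 differed 1.40-fold between the libraries, Mir425 stood at 688 CPM (reads per 1000000 assigned reads) and ranked 110 of the 2202 genes, and Dalrd3, the supposed host of Mir191 and Mir425, does not overlap either of them in GENCODE M21.

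RNA shorter than 30 bases was sequenced from the cerebral cortex, left side, of male 5xFAD/CAST mice that were adult and aged 8 to 10 months. 5xFAD names a transgenic model of amyloid deposition and CAST an inbred strain derived from wild mice, and the labels do not say whether the sampled animals carried the transgenes. There were 2 libraries in 1 group, made from separate pieces of tissue listed under a common donor identifier; their spread may therefore be technical. No control mice were analysed here. The sense-strand total over all microRNA genes was 4929428 reads in replicate 1 and 4441328 in replicate 2. Levels are sense counts scaled to 1000000 assigned reads, not divided by gene length because each read represents a whole short RNA, and errors are SDs over both libraries (n = 2).

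A microRNA is cut from a hairpin precursor, and each arm of the hairpin can give a mature strand of about the length of a read. Bases 2 to 8 of the mature strand, the seed, pair with target messenger RNAs and lower their output. Many microRNA hairpins lie in introns of protein-coding genes and are made from the same primary transcript as the host's messenger RNA. Among the 5, miR-191 is often used as a reference in measurements of microRNA levels and has a reported role in dendritic spines, and miR-151 was studied with its host's product, focal adhesion kinase, in cell migration. miR-744 is known as a repressor of transforming growth factor beta 1.

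RefSeq sequences (GRCm38.p6, the mm10 assembly) were found for 4 of the 5 genes, all but Mir151. The counts do not tell the arms of a precursor apart, so both arms are shown, 5′ to 3′, with the seed in capitals, because the seed decides which other microRNAs could share their targets.
miR-744-5p: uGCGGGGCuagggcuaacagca
miR-744-3p: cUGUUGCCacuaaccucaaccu
miR-652-5p: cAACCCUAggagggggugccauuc
miR-652-3p: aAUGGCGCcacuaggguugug
miR-191-5p: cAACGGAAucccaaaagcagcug
miR-191-3p: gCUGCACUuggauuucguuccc
miR-425-5p: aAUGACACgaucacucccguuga
miR-425-3p: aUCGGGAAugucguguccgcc

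No seed occurred in more than 1 of these 8 arms. Among 1679 RefSeq mature arms with distinct names, 7 of the 8 seeds occurred in no other arm, and over all arms 72.1% had a seed found in no other. The exception was the seed AUGACAC of miR-425-5p, which is also that of miR-489-3p (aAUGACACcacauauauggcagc, seed in capitals, chromosome 6, 3721922 to 3721944 on the minus strand). Mir489 had no read in either library, and at this depth a count of 0 allows up to 3 reads, or 0.609 and 0.675 CPM in replicates 1 and 2, for counting error only. Among the arms searched, the counted precursors with that seed were therefore those of Mir425. The search covered arms of 374 of the 417 detected genes, so the same seed in a remaining gene was not excluded. The GC content of the 8 arms ran from 47.8% in miR-425-5p to 63.6% in miR-744-5p, against a median of 50% over 696 arms of detected genes.

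The hairpins that carry these arms are printed with both mature arms in capitals, since reads were counted over the whole hairpin. Mir744 is 100 bases long, Mir652 is 98, Mir191 is 74 and Mir425 is 85.
Mir744: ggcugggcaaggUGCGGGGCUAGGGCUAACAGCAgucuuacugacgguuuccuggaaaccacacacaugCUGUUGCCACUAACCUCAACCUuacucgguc
Mir652: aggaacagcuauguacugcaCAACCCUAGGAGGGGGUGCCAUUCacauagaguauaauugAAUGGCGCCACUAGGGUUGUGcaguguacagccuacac
Mir191: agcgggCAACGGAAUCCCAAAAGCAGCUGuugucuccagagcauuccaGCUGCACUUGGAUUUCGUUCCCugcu
Mir425: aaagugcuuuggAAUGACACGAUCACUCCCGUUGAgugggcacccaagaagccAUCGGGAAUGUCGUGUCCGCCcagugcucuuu

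None of the 8 arms, whole or by their first 18 bases, occurred in any other of 1005 RefSeq hairpins on either strand. This matters here because reads with several mapping places are listed apart from the gene counts; there were 1.28 such reads for each assigned read in replicate 1 and 1.26 in replicate 2. Stretches of 20 bases were also compared with 141767 GENCODE M21 transcripts outside each gene's own locus. Mir744, Mir652, Mir191 and Mir425 shared none, and Mir151 shared a stretch with transcripts of Klf3, a transcription factor gene on chromosome 5, but with no other microRNA gene. Of the 417 detected genes, those with at least 10 reads in each library, 71.7% shared no such stretch, and among the 96 genes with a mean of at least 1000 CPM it was 79.2%. The rest of the genome was not searched.

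Mir744 was the most abundant of the 5 and the least even. It had 239690 reads in replicate 1 and 302305 in replicate 2, or 48624 and 68066 CPM, and took 4.86% and 6.81% of the assigned reads. The mean of 58345 ± 13748 CPM had rank 4 of all genes, below Mirlet7b (69806 ± 1176 CPM) and above Mirlet7i (49958 ± 1762 CPM). In replicate 1 Mir744 was slightly below Mirlet7i (48712 CPM there), and in replicate 2 it was close to Mirlet7b (70637 CPM there), so its place between these neighbours rested on replicate 2. Its log2 ratio of replicate 2 to replicate 1 was 0.49 (exact 95% interval 0.48 to 0.49, counting error only). Of the 417 detected genes, 256 were closer between the libraries than Mir744.

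Mir151 and Mir652 stood at almost the same level. Mir151 had 58370 and 53810 reads in replicates 1 and 2, or 11841 and 12116 CPM, with a mean of 11978 ± 194 CPM (rank 15). Mir652 had 58828 and 51611 reads, or 11934 and 11621 CPM, with a mean of 11777 ± 221.6 CPM (rank 16). Their order turned between the libraries, Mir652 being higher in replicate 1 and Mir151 in replicate 2, so these neighbours in the ranking did not differ beyond their spread. The ratio of Mir151 to Mir652 was 0.992 (exact 95% interval 0.981 to 1.00) in replicate 1 and 1.04 (1.03 to 1.06) in replicate 2.

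Both were among the most even genes of the data, which is how they were chosen. The log2 ratio of replicate 2 to replicate 1 was 0.03 (0.02 to 0.05) for Mir151 and -0.04 (-0.06 to -0.02) for Mir652. Only 19 detected genes had a smaller gap than Mir151, and 24 had a smaller gap than Mir652. For Mir652 the direction depended on the scaling: the log2 ratio was 0.0093 with the trimmed mean of M-values (TMM) factors of edgeR and 0.044 when the 10 most abundant genes were left out of the total.

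Mir191 had 46938 reads in replicate 1 and 37767 in replicate 2, or 9522 and 8504 CPM, with a mean of 9013 ± 720.2 CPM (rank 24). It was below Mir652 and above Mir425 in both libraries. The log2 ratio was -0.16 (-0.18 to -0.14), and 112 detected genes had a smaller gap. Next to it in the ranking stood Mir330, in an intron of Eml2, at 9019 ± 73.7 CPM, which was below Mir191 in replicate 1 (9071 CPM) and above it in replicate 2 (8966 CPM).

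Mir425 was far lower than the other 4. It had 3503 and 2956 reads in replicates 1 and 2, or 711 and 666 CPM, with a mean of 688 ± 31.9 CPM, still above the median of 94.7 CPM over detected genes. The exact 95% Poisson interval for replicate 1 ran from 687 up to 735 CPM and overlapped that of the other library, which ran from 642 up to 690.0 CPM. The log2 ratio was -0.09 (-0.17 to -0.02), with 67 detected genes closer. Mir744 exceeded Mir425 84.8-fold in mean CPM.

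**Figure D1:**
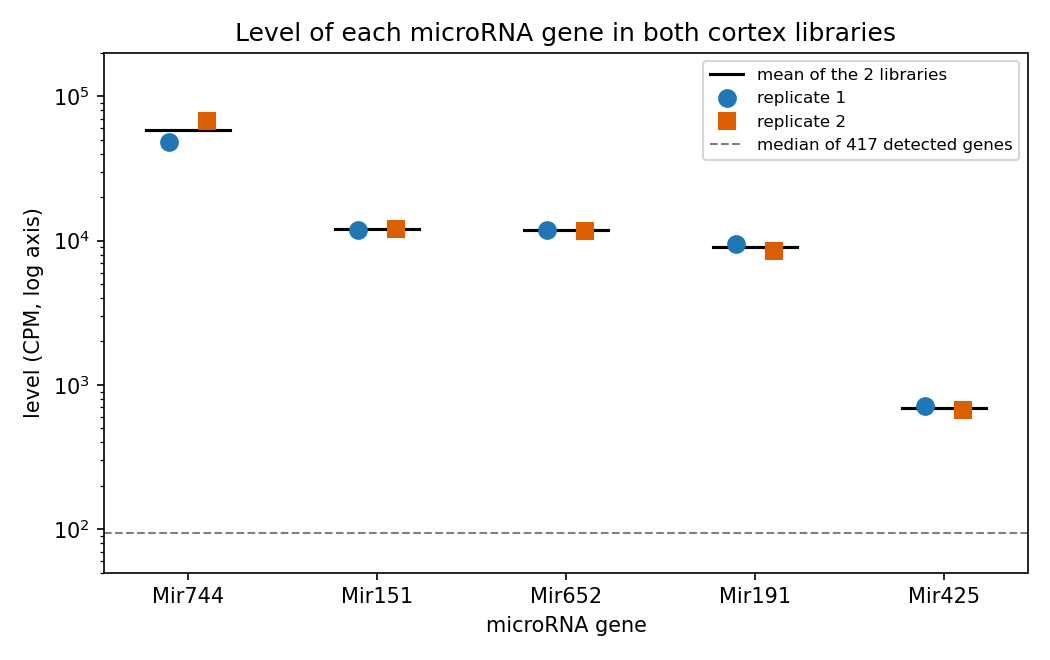
Level of each of the 5 genes in CPM on a log axis, with replicate 1 as circles, replicate 2 as squares, the mean as a bar and the median of all 417 detected genes (94.7 CPM) as a dashed line. The symbols nearly coincide for Mir151 and Mir652 and lie furthest apart for Mir744, at 48624 and 68066 CPM.

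Together the 5 genes took 8.26% of the assigned reads in replicate 1 and 10.1% in replicate 2. Without Mir744 the other 4 took 3.40% and 3.29%. The gap in the sum thus lay in Mir744.

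An exact binomial test, two-sided and adjusted after Benjamini-Hochberg over the detected genes, compares these 2 libraries and not conditions. By it, 247 of 417 genes (59.2%) differed at 0.05, 24.7% higher and 34.5% lower in replicate 2. The outcome for the 5 genes is not given, because they were chosen with this contrast in view. Among the 96 genes of at least 1000 CPM the share past the threshold was 91.7%, with 42.7% higher and 49% lower, since at such counts a gap of a few percent exceeds counting error. The spread between libraries beyond counting error, fitted by edgeR as a biological coefficient of variation, was 0.340 over the detected genes and 0.315 over those of at least 1000 CPM. The coefficients of variation of CPM were 23.6% for Mir744, 7.99% for Mir191, 4.63% for Mir425, 1.88% for Mir652 and 1.62% for Mir151. The median gene was 1.29-fold apart between libraries, and 1.27-fold among the 96. The 4 genes other than Mir744 were all closer than that, at most 1.12-fold apart (Mir191).

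Ratios of genes within a library do not depend on the library total. Of the 10 ratios among the 5 genes, the 6 without Mir744 changed between libraries by 1.04-fold (Mir652 over Mir425) to 1.15-fold (Mir151 over Mir191). The 4 ratios that hold Mir744 changed by 1.37-fold against Mir151 to 1.57-fold against Mir191, and each was higher in replicate 2. Mir744 over Mir191, for example, was 5.11 in replicate 1 and 8.00 in replicate 2.

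**Figure D2:**
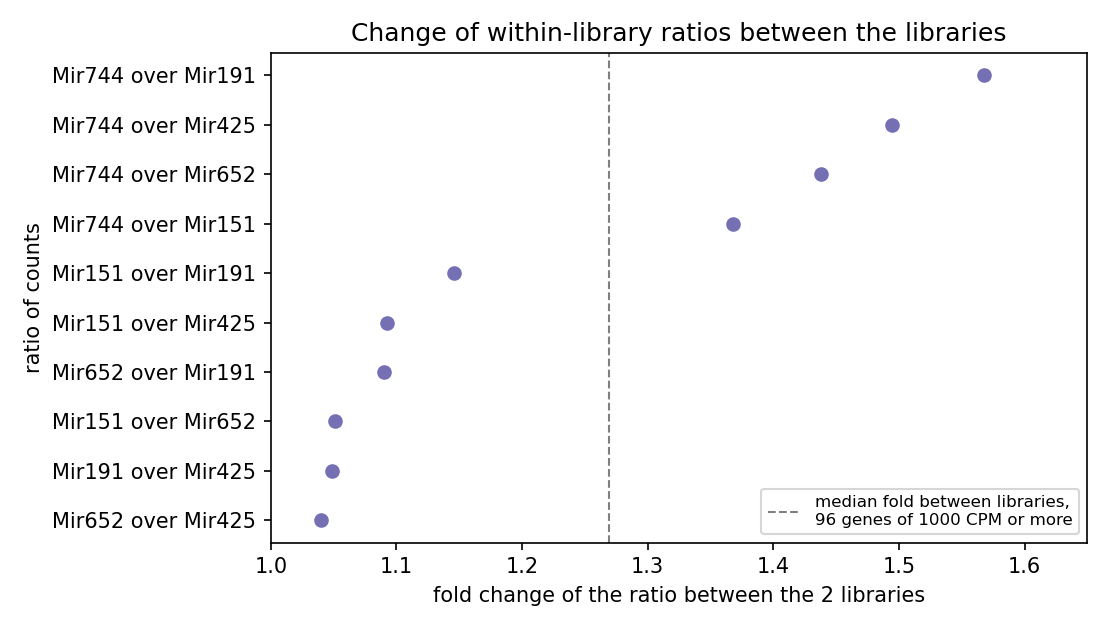
Fold by which each of the 10 ratios of counts among the 5 genes changed between the 2 libraries, with the median fold between libraries over the 96 genes of at least 1000 CPM (1.27) as a dashed line. The 6 ratios without Mir744 lie between 1.04 and 1.15, and the 4 with Mir744 lie between 1.37 and 1.57. The line is for levels of single genes and is not a like measure for changes of ratios.

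Mir191 and Mir425 are neighbours on chromosome 9 (mm10), and their counts kept nearly the same proportion. Mir191 (ENSMUSG00000105497.1) is at 108568319 to 108568392 and Mir425 (ENSMUSG00000065579.1) at 108568777 to 108568861, both on the plus strand and 384 bases apart. The ratio of Mir191 to Mir425 reads was 13.4 (exact 95% interval 12.9 to 13.9) in replicate 1 and 12.8 (12.3 to 13.3) in replicate 2, with a mean of 13.1 ± 0.441, and the intervals overlap. For comparison, 74 other pairs of adjacent detected genes lay within 10 kb on the same strand with at least 100 reads in each library. Their ratios changed between libraries by a median of 1.29-fold, against 1.05-fold for Mir191 and Mir425, and 6 of the 74 changed less. Both were picked for being even between libraries, so this closeness is a description. The higher member of these pairs exceeded the lower by a median of 5.28-fold, and 28 of the 74 pairs were more unequal than Mir191 and Mir425. Many of the 74 lie in a row on chromosome 12 and have genes in common, so the pairs are not independent. Many also hold a gene with fewer reads than Mir425, so counting error adds more to their change.

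The annotations differ on the gene in which this pair lies. In GENCODE M21, which was used for the counts, Dalrd3, a gene for a protein with a DALR anticodon-binding domain, runs from 108569886 to 108572774 on the plus strand and starts 1493 bases after the end of Mir191 and 1024 bases after that of Mir425. The gene on the same strand there is the long non-coding RNA 4833445I07Rik (108567533 to 108569174). Mir191 falls in an intron of 303 bases in 1 of its 2 transcripts that span it and in the exon of the other, and Mir425 lies in the exon of the only transcript that spans it. In RefSeq on the same assembly, Dalrd3 runs from 108567484 to 108572773 and spans both microRNAs. The host named for this pair thus depends on the annotation, and the level of neither possible host was measured here.

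**Figure D3:**
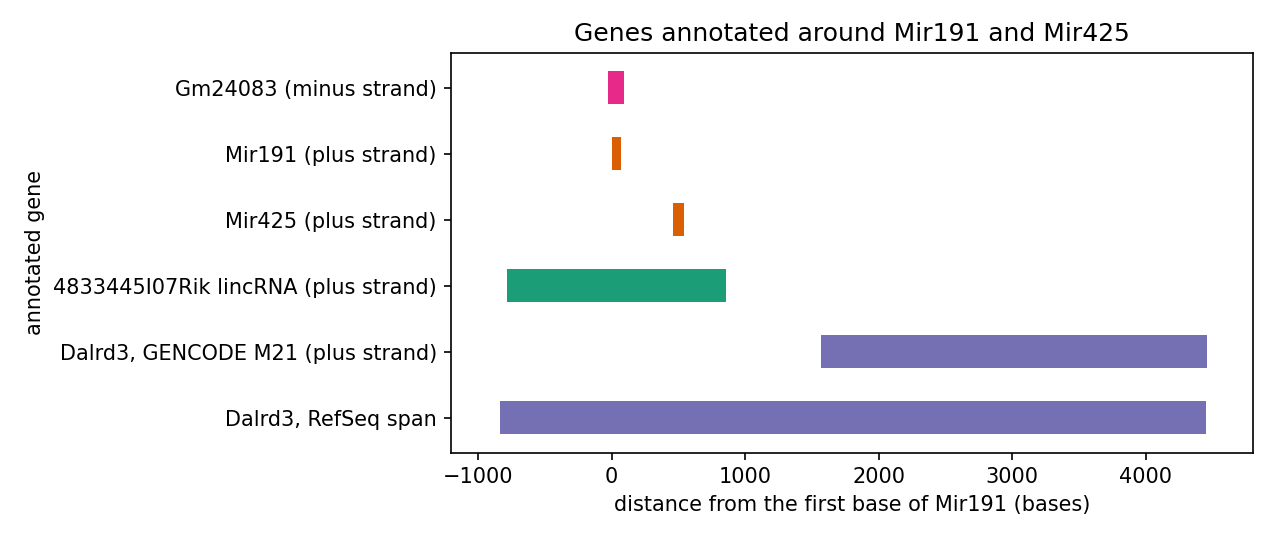
Genes annotated around Mir191 and Mir425, drawn to scale by distance in bases from the first base of Mir191. Dalrd3 spans both microRNAs in RefSeq, whereas in GENCODE M21 it starts 1493 bases beyond Mir191, and Gm24083 covers Mir191 on the other strand.

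Mir191 also overlaps another microRNA gene on the opposite strand, Gm24083 (ENSMUSG00000092915.1), at 108568295 to 108568414 on the minus strand. The sense column gave Mir191 46938 reads in replicate 1 and 37767 in replicate 2, and Gm24083 none in either library. The column without regard to strand gave 0 to both genes in both libraries, and it lists 349505 and 318888 reads as ambiguous between genes; the sense reads of Mir191 come to 13.4% and 11.8% of these totals. In the opposite-strand column Gm24083 held exactly the reads of Mir191, 46938 and 37767, and Mir191 held none. All reads counted at this locus were thus on the plus strand. Of the 96 genes of at least 1000 CPM, 9 were at 0 in both libraries in the column without strand, and Mir191 was the second most abundant of them after Mirlet7e.

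**Figure D4:**
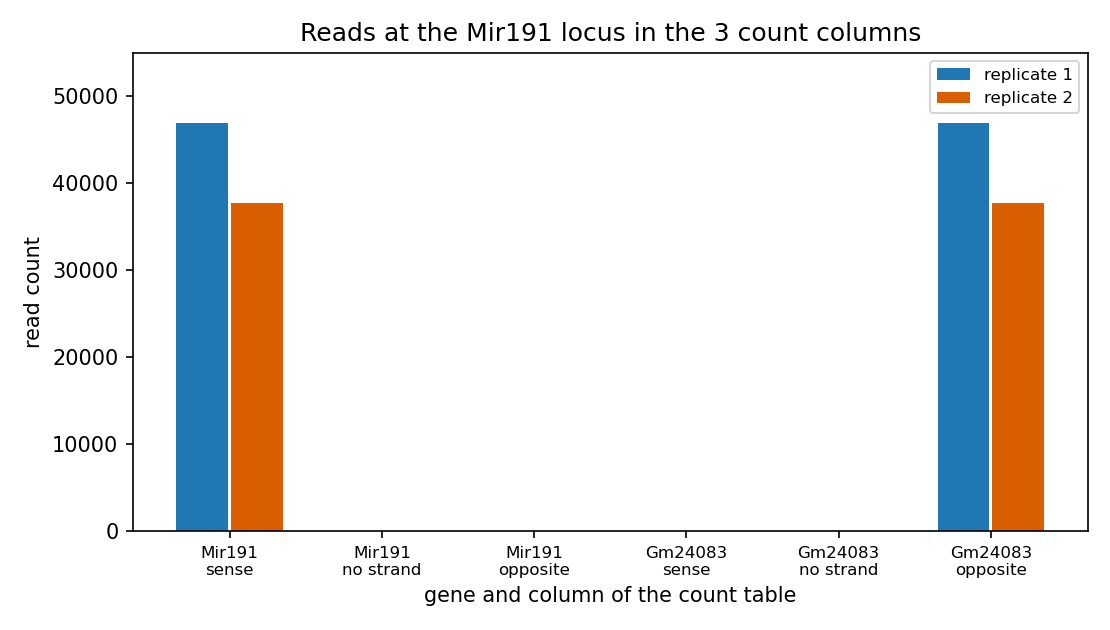
Read counts of Mir191 and of Gm24083 in the sense, strandless and opposite-strand columns, for replicate 1 and replicate 2. Mir191 has reads only in the sense column (46938 and 37767), and Gm24083 has the same numbers only in the opposite-strand column.

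For the other 4 genes the sense column and the column without strand held equal counts, and the opposite-strand column held 0 in both libraries. Mir151 is overlapped on the other strand by the long antisense gene 1700085D07Rik. That gene is not a microRNA gene and so has no row in the tables.

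The 3 remaining genes lie within the same protein-coding genes in both annotations, and in GENCODE M21 they lie in introns. Mir744 (ENSMUSG00000076460.1, chromosome 11, 65734733 to 65734832, minus strand) lies in Map2k4, which encodes a kinase of the stress-activated JNK and p38 pathways, in all 5 transcripts that span it. In the longest protein-coding transcript it is in intron 3 of 10, which is 15588 bases long, only 359 bases after the upstream exon. Mir151 (ENSMUSG00000065612.1, chromosome 15, 73254815 to 73254882, minus strand) is intronic in all 5 spanning transcripts of Ptk2, the gene of focal adhesion kinase. There it is in intron 23 of 33, 2151 bases after the upstream exon and 12337 bases before the next. Mir652 (ENSMUSG00000076011.1, chromosome X, 142739000 to 142739097, plus strand) is intronic in all 7 spanning transcripts of Tmem164, which encodes a transmembrane protein. Its intron, 2 of 6, is the longest of the 3 at 69090 bases, and the hairpin lies 56050 bases from the upstream exon. The hosts are annotated genes and their own RNA was not measured.

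Such a position is common among the detected genes. Of the 417, 225 (54.0%) had a protein-coding gene on the same strand as host, 80 had another kind of host and 112 had none. Genes in protein-coding hosts took 52.6% of the assigned reads in replicate 1 and 52.3% in replicate 2, but their median level was 44.5 CPM, below the 150 CPM of genes with no host. Their median gap between libraries was 1.29-fold, against 1.32-fold with no host, and 52.4% and 65.2% were past the threshold of the binomial test; no test of this difference was made. Mir744, Mir151 and Mir652 are thus high among the genes with such hosts.

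MicroRNAs of other broadly expressed protein-coding hosts ranged from even to far apart between the libraries. A list of 34 was drawn up, each found in the annotation inside a protein-coding host, and 33 were detected, with a median of 919 CPM. In replicate 2, 15 were higher, 12 were lower and 6 were not past the threshold. The share past it was 81.8%, against 59.2% of all detected genes and 91.7% of the 96 genes of at least 1000 CPM. The median gap was 1.21-fold and the median log2 ratio 0.04, against 1.29-fold and -0.05 over all detected genes. The most abundant were Mirlet7g in Wdr82 (100229 and 111925 CPM in replicates 1 and 2), Mir23b in 2010111I01Rik (25038 and 14908 CPM) and Mir26b in Ctdsp1 (12983 and 7666 CPM). Among members with 100 or more reads in both libraries, the gap was widest for Mir301 in Ska2 (3044 and 104 reads, log2 ratio -4.72) and for Mir26a-1 in Ctdspl (136 and 886 reads, log2 ratio 2.85). At the other end Mir330, in Eml2, was 1.01-fold apart and not past the threshold (adjusted p = 0.145 by the exact binomial test).

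**Figure D5:**
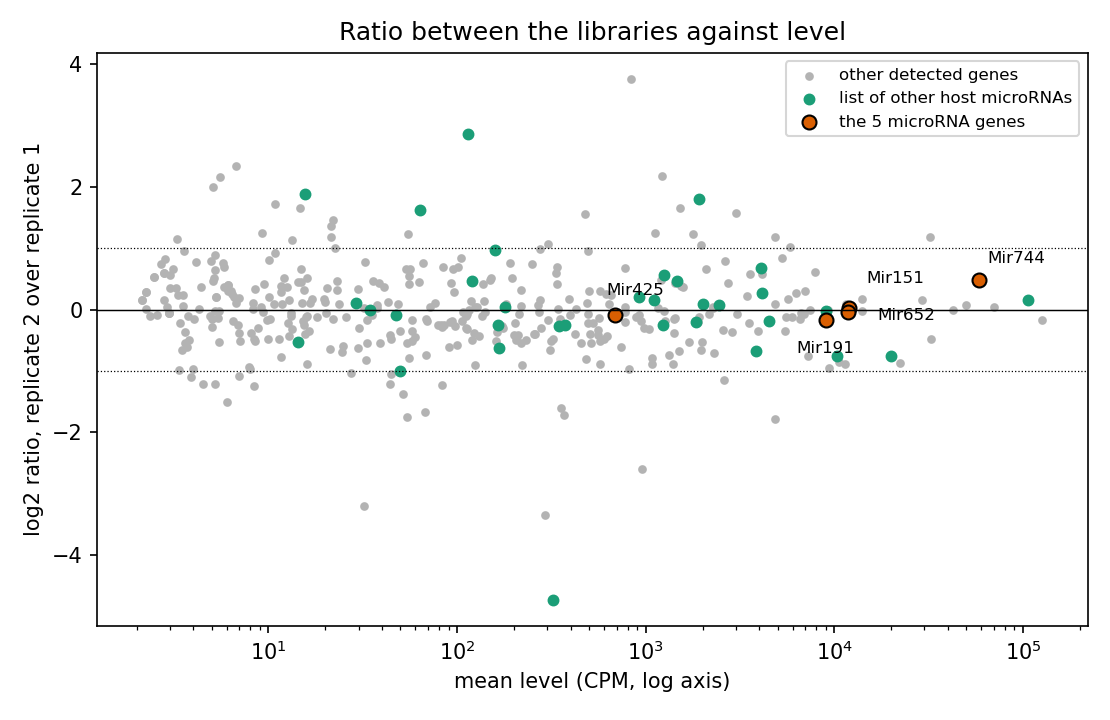
Log2 ratio of replicate 2 to replicate 1 against mean CPM on a log axis for the 417 detected genes, with the 5 genes in orange, the list of other host microRNAs in green and dotted lines at a 2-fold gap. Mir151 and Mir652 lie at almost the same point near 0, Mir744 lies at 0.49, and green points reach -4.72 (Mir301) and 2.85 (Mir26a-1).

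MicroRNAs often used as references for quantification, some of them also in the list above, were compared in the same way, since miR-191 is of that kind. Of a list of 21, 20 were detected, with a median of 336 CPM. By the binomial test 7 were higher and 9 lower in replicate 2. The share past the threshold was 80.0%, against 59.2% of all detected genes and 91.7% of the 96 genes of at least 1000 CPM. The median gap was 1.31-fold. Mir191, at 1.12-fold, lay below that median, but it was picked for being even between libraries, so this is a description. Its mean level of 9013 CPM was also far above the median level of the list. The most abundant were Mir26b, Mir30d (7414 and 7410 CPM) and Mir361 (4808 and 4218 CPM), and the widest gaps were those of Mir26a-1 and Mir26a-2 (154 and 428 reads, log2 ratio 1.63). Mir30d was 1.00-fold apart, closer than any of the 5 genes. Both Mir26a loci share a stretch of 20 bases with another microRNA gene, and reads that map to several places are not in their counts.

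Genes usually grouped with miR-151 and miR-425 by sequence were lower than Mir151, and some were at or near 0. Mir708, in Tenm4, had 11858 and 6767 reads (2406 and 1524 CPM), and Mir28a, in Lpp, had 2006 and 1510 reads (407 and 340.0 CPM). Both were lower in replicate 2, with log2 ratios of -0.66 (-0.70 to -0.62) and -0.26 (-0.36 to -0.16), where Mir151 was at 0.03. Mir28c had 1 and 2 reads and Mir28b had 1 and 0, all at or under the floor of 3 reads. Mir28a and Mir28c share a stretch of 20 bases, as do Mir708 and Gm23134, another microRNA gene, and reads from such stretches can fall among those with several places, which were not counted.

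Among the detected genes other than the 5, the nearest to each was found by Euclidean distance in log2 CPM over the 2 libraries. Mir151 and Mir652 were 0.06 from each other. Outside the 5, the nearest to both were Mir328 (12247 and 11825 CPM, distances 0.06 and 0.05) and Mir433 (11222 and 11937 CPM, distances 0.08 and 0.10). For Mir191 they were Mir330 (distance 0.10) and Mir125a in Spaca6 (9224 and 9161 CPM, distance 0.12). Mir425 was nearest to Mir3099 in Usp29 (615 and 656 CPM, distance 0.21) and Mir125b-1 (782 and 761 CPM, distance 0.24). The least distances from Mir744 were 0.41 to Mirlet7i and 0.51 to Mirlet7b.

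The labelled tissue was checked by microRNA markers. Neuronal markers were detected at 8 of 10 loci (48588 and 60407 CPM in sum in replicates 1 and 2). Nearly all of that sum lay in Mir132, Mir128-1, Mir137 and Mir128-2. The neuronal loci Mir124a-1, Mir124a-2 and Mir124a-3 each had at most 4.26 CPM in either library. Markers of astroglia, oligodendrocytes and vessels were all detected. Markers of liver, of muscle, and of hindbrain and trunk each summed to at most 92.5 CPM in either library, with Mir1a-1, Mir133a-1 and Mir196a-1 at 0. The highest in each of these lists were detected: Mir122 (69.0 and 50.9 CPM), Mir206 (35.5 and 45.9 CPM) and Mir10a (70.4 and 41.0 CPM). Reads that map to several places are not in these counts, so a low count or 0 at a locus does not show that the microRNA was absent. The red blood cell markers Mir451a and Mir144 had a summed level of 587 CPM in the first library and 58.5 CPM in the second. The higher neuronal sum in replicate 2 lay in Mir132 (19682 and 44698 CPM), while Mir128-1 (13556 and 7493 CPM), Mir137 (12338 and 6351 CPM) and Mir128-2 (2858 and 1743 CPM) were lower there. The oligodendrocyte sum went from 3387 to 5618 CPM, the astroglial sum from 40493 to 30544 CPM and that of vessels from 20418 to 21812 CPM. The astroglial fall lay in Mir23b (25038 and 14908 CPM). Mir29a was at 14129 and 13906 CPM, and Mir29c was higher in replicate 2 (1326 and 1730 CPM). Of the vessel markers, Mir126a and Mir145a were higher in replicate 2 and Mir143 was lower. Microglia and leukocyte markers summed to 1338 and 1131 CPM. Most of that sum lay in Mir150 (1073 and 874 CPM), which like Mir155 (125 and 100 CPM) was lower in replicate 2. Mir142 (132 and 145 CPM) and Mir223 (9.33 and 10.8 CPM) were not past the threshold. The part of these cell types in the gap of Mir744 was not tested. In tissue RNA, a change in the number of cells of a type and a change in RNA per cell cannot be told apart.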

How the data were processed

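MicroRNA-seq libraries from 2 cortex samples of 1 group were used. The deposited tables hold raw read counts per microRNA gene in 3 columns (without regard to strand, sense, opposite strand), with unassigned reads as 4 separate totals. They were made against mm10 and GENCODE M21, per the notes deposited with the files; for the aligner, the counter and their settings the sources used here give nothing. Unassigned reads stayed out of library sizes: of all reads, 25.6% and 34.3% were unmapped, 38.5% and 33.0% mapped to several places, and 5.82% and 6.54% lay outside microRNA genes in replicates 1 and 2.

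Sense counts were scaled to CPM of the assigned total. Genes reaching 10 reads in both libraries were compared by a two-sided exact binomial test on the library totals (scipy 1.17.1), with Benjamini-Hochberg adjustment and a threshold of 0.05; edgeR 4.0.16 gave TMM factors and the coefficient of variation, and DESeq2 1.42.0 gave size factors. Intervals are exact 95% intervals (Clopper-Pearson for ratios, Poisson for counts), and they and the floor of 3 reads cover counting error only. On simulated counts for these libraries (426 genes tested) the test called 71.6% of genes at 1.5-fold, 95.1% at 2-fold and 0.851% of unchanged genes. These rates hold for the simulated counts only. The real libraries differed beyond counting error (edgeR coefficient 0.340), so 0.851% is not the rate of false calls in them.

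The 5 genes, the lists and the rule for named genes were chosen with earlier results of these data known. Besides the 5, the text names the 2 genes nearest to each outside the 5, the 3 most abundant and 2 widest of each list, and all sequence relatives; Mir330, Gm24083, Mirlet7e, single cell type markers and the neighbours by rank were named after their values were seen. A chi-square of 634 per degree of freedom over genes showed that the libraries are not 1 library in 2 copies.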

Additional observations from a re-analysis of the deposited data

Results flagged for a closer look

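Gm24083, annotated opposite Mir191, had 46938 reads in replicate 1 and 37767 in replicate 2 in the opposite-strand column, which was not used for levels. With no control samples, these numbers stand against the 3 reads that a count of 0 allows. They equal the sense counts of Mir191 in each library.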

How the results depend on the processing

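No paired analysis was possible because there is only 1 group. Over the alternatives run, 45 values stayed within a set limit of the main value, 30 moved beyond it and 2 changed sign. The limit was the SD for levels and for the Mir191 to Mir425 ratio, and the counting interval for log2 ratios between libraries. For numbers of genes and for the spread it was a fixed fold, and the uniqueness of the arms had to be unchanged. Log2 ratios that moved beyond the limit kept their sign. The 45 include the levels, and the Mir191 to Mir425 ratio, with a library left out. With 2 libraries such values lie within the SD of the mean whatever the counts, so they are no sign of stability. The log2 ratio of Mir652 changed sign, to 0.0093 with TMM factors and 0.044 when the 10 most abundant genes were left out of the total, and it was -0.017 with DESeq2 size factors and -0.061 over all mapped reads. In the same order of settings (TMM, top 10 left out, DESeq2, all mapped) the ratio of Mir744 was 0.53, 0.57, 0.51 and 0.46, that of Mir151 was 0.081, 0.12, 0.054 and 0.011, and that of Mir191 was -0.12, -0.081, -0.14 and -0.19; Mir425 went to -0.012 with the top 10 left out. Leaving the top 10 out of the total raised the levels of Mir744, Mir151, Mir652, Mir191 and Mir425 to 136315, 27863, 27376, 20924 and 1599 CPM, and all mapped reads as the total lowered them to 23353, 4800.2, 4721, 3614 and 276 CPM. Both follow from the smaller or larger total. In the counts without regard to strand Mir151 stood at 12898, Mir652 at 12682 and Mir425 at 741 CPM, while Mir191 and its ratio to Mir425 were 0. The number of genes past the threshold between libraries ran from 218 to 275 over the filters, scalings and strand columns tried, against 247. The search of the whole genome for the mature arms was not run. The precision of these data is limited by there being 2 libraries, since counting error is small for all 5 genes.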

Other observations

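Genes that share 20 bases with another microRNA gene were further apart between the libraries than those that do not. The 86 detected genes that share such a stretch had a median gap of 1.43-fold, and the 331 that do not had 1.27-fold. Among the microRNAs of other broadly expressed hosts the medians were 1.39-fold over 12 sharing genes and 1.19-fold over 21 others, and among the reference microRNAs 1.68-fold over 9 and 1.19-fold over 11. None of the 5 genes shares such a stretch with another microRNA gene. Both lists lie within the detected genes and have members in common, so these comparisons are not independent. The levels of sharing and other genes were not matched. These values are descriptions, and no test of the difference was made.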
